A study of Arabidopsis thaliana with 27 samples.

Results

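QQS (Qua-Quine Starch, AT3G30720, chromosome 3) is an orphan gene of Arabidopsis thaliana, that is, a protein-coding gene for which no related gene is recognised in other species. It is represented by the 1 probe set that the array annotation pairs with QQS, out of 13286 genes measured, and its suffix (_at) marks no known cross-hybridisation. QQS was singled out because its signal separates upf3-1 from wild type and upf1-1 on every day, so its levels and its differences between genotypes are given below as a description without a test.

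QQS codes for a small protein that binds NF-YC4, a subunit of the NF-Y transcription factor. In leaves, silencing of QQS raises starch content, and overexpression lowers starch and raises protein, which places the gene in the allocation of carbon and nitrogen. Its transcript level is known to vary between natural accessions together with DNA methylation of sequence upstream of the gene. UPF1 and UPF3, the genes mutated here, are factors of nonsense-mediated mRNA decay (NMD), which degrades transcripts whose stop codon is premature or unusually placed.

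The 27 arrays are Affymetrix arrays with 1 RNA sample each, from callus of Columbia (Col-0) hypocotyls. Hypocotyls of seedlings grown for 12 days spent 6 days on callus-inducing medium, and RNA was taken after 0, 3 or 6 days on shoot-inducing medium. These last days follow the sample labels, while the design text of the series gives 0, 3 and 3 days. Wild type, lba1-1/upf1-1 (here upf1-1) and upf3-1 were each sampled on the 3 days, with 3 arrays in each of the 9 groups. One allele stands for each gene, so an effect of the upf3-1 mutation and any other difference of that line cannot be told apart. The lba1-1 allele is known as an amino acid substitution in UPF1 and was found in a screen for altered sugar-induced beta-amylase expression. The labels do not say whether replicates are separate cultures, so errors and p-values measure only how these samples differ among themselves, and that spread may be technical. For replicate 1 of upf1-1 on day 0 the title holds both upf1-1 and wild type, and the sample was placed by its other labels, which give lba1-1/upf1-1. Its QQS signal of 4.63 lay between the wild type arrays of that day and below the other upf1-1 arrays. QQS overlapped between these genotypes, so it does not place the sample. UPF3 signal on day 0 was at least 9.63 in every upf1-1 array, this sample included, and at most 9.08 in every wild type array. PRK, a green tissue marker, was at least 6.26 in the former and at most 4.75 in the latter. Both genes were taken for this after their values were seen. Without this sample, QQS on day 0 stood at 0.24 in upf1-1 against wild type and at 2.38 in upf3-1 against upf1-1, in place of 0.17 and 2.45.

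Values are log2 signals after robust multi-array average (RMA), on a scale from 2.04 to 13.48. A difference of 1 on this scale is 2-fold. Signals of different probe sets are not comparable as transcript amounts, and less RNA per cell cannot be told from fewer expressing cells. The UPF3 transcript was low in each of the 9 upf3-1 arrays (5.70 to 6.38) and lay between 8.98 and 9.73 in the other 18. In upf1-1 it was higher than in wild type by 0.59, 0.57 and 0.53 on days 0, 3 and 6 (limma adjusted p at most 0.000266). AT2G39260 (UPF2, the partner of both factors) was not called in either mutant, and UPF1 was not analysed here. Of 10 callus and root primordium markers LBD16, LBD29 and PUCHI were measured, that is, matched to a probe set through 1 gene symbol. Over all 3 days their mean log2 level ran from 4.76 to 7.46 in wild type, from 4.94 to 7.36 in upf1-1 and from 4.74 to 7.12 in upf3-1. All 3 were highest on day 0. In wild type the means of days 0 and 3 were 9.02 and 6.65 for LBD16, 4.69 and 3.71 for LBD29, and 8.13 and 4.92 for PUCHI.

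QQS signal was low in wild type on all 3 days. On day 0 its 3 replicates read 4.83, 4.76 and 4.22. The replicates of day 3 read 4.39, 4.22 and 4.13, and those of day 6 read 4.14, 4.13 and 4.89. The group means were 4.60 ± 0.33 (SD, n = 3), 4.25 ± 0.13 and 4.39 ± 0.43, and the ranges of days 0 and 6 overlapped with that of day 3. Between 28.1% and 31.5% of all probe sets had a lower mean in these groups. No detection call was used, so these signals cannot be told from background here.

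In upf1-1 QQS was low as well. On day 0 the signal was 4.63, 4.90 and 4.78. It was 4.58, 4.72 and 3.98 on day 3 and 4.76, 4.73 and 4.29 on day 6, with means of 4.77 ± 0.13 (SD, n = 3), 4.43 ± 0.39 and 4.59 ± 0.27. On each day the upf1-1 arrays overlapped with the wild type arrays. The highest of the 18 arrays of both genotypes was 4.90 and the lowest 3.98.

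In upf3-1 QQS was high in every array. Its values were 7.70, 6.85 and 7.11 on day 0. They were 8.87, 7.50 and 7.92 on day 3 and 8.05, 7.59 and 7.37 on day 6. The means were 7.22 ± 0.43 (SD, n = 3), 8.10 ± 0.71 and 7.67 ± 0.35, and 59.6%, 74.7% and 67.3% of probe sets had a lower mean. The lowest upf3-1 array lay 1.96 above the highest array of the other genotypes. Replicate 1 was the highest of the 3 on each day, although the replicate numbers are not known to pair samples. The spread within groups was 0.52 in upf3-1 (pooled SD), against 0.32 in wild type and 0.28 in upf1-1.

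**Figure D1:**
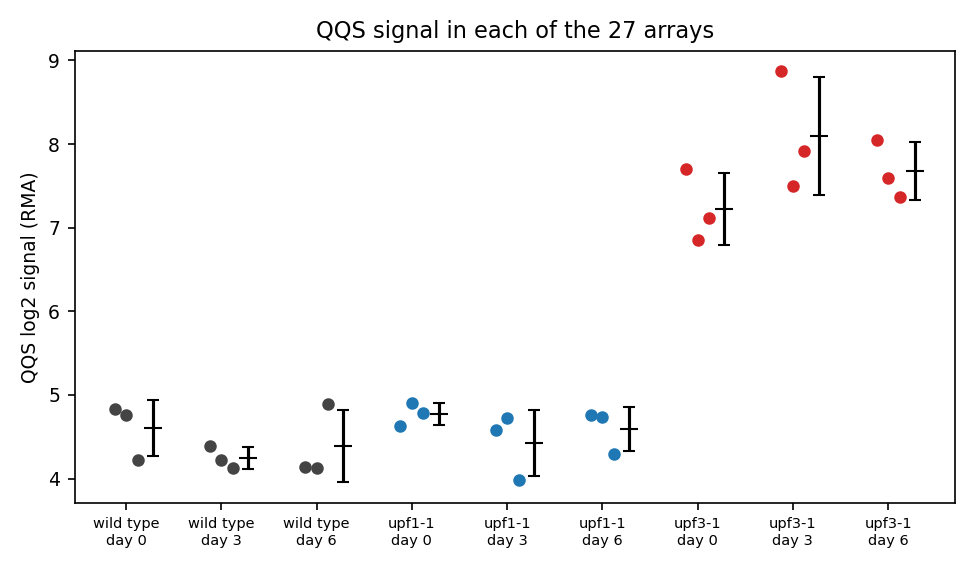
QQS log2 signal (vertical axis) in each of the 27 arrays, by genotype and day, with replicates 1 to 3 as points from left to right and the group mean ± SD (n = 3) as a black bar beside them. The 9 upf3-1 arrays lie between 6.85 and 8.87, and the 18 wild type and upf1-1 arrays between 3.98 and 4.90.

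Ordered by mean signal, the 9 groups run from upf3-1 day 3 through upf3-1 day 6 and upf3-1 day 0 to upf1-1 day 0, wild type day 0, upf1-1 day 6, upf1-1 day 3, wild type day 6 and wild type day 3. Neighbours in this order had overlapping replicates in 7 of the 8 steps. The exception was the step of 2.45 from upf3-1 day 0 to upf1-1 day 0. The 6 groups without the upf3-1 mutation spanned 0.53 in their means.

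Against wild type on the same day, QQS signal in upf3-1 stood 2.62 higher on day 0, then 3.85 and 3.28 higher on the later days (SE 0.28 each, 3 against 3 arrays). In linear terms these are 6.13-fold, 14.4-fold and 9.74-fold, and a wild type signal at background would make them smaller than the true ratio. The groups did not overlap on any day, and the share of all genes without overlap is not given here. In the same 3 contrasts 15.3%, 22.5% and 18.4% of all genes were called different at a limma adjusted p under 0.05, and nothing is read from that for QQS, which was chosen on these contrasts. Among all 13286 genes QQS had the largest increase on days 3 and 6, and on day 0 it was number 3 from the top.

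Set against upf1-1, the QQS signal of upf3-1 stood 2.45, 3.67 and 3.08 higher in the same order of days (SE 0.28). The arrays did not overlap, again without a share of all genes to set beside that. By limma 3.84%, 7.93% and 2.24% of all genes were called in these contrasts. From the top, QQS was number 1 on days 0 and 6 and number 3 on day 3. The differences between upf1-1 and wild type were 0.17, 0.18 and 0.20 (SE 0.28), each smaller than its error. All these comparisons reuse the same wild type or upf3-1 arrays, so they are not separate pieces of evidence.

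Other genes that stood far above wild type in upf3-1 were high in upf1-1 too. Taken after the values were seen, 6 genes were at least 4-fold higher in upf3-1 than in wild type on every day. QQS was the only one of the 6 that was not also raised in upf1-1, where the other 5 (AT2G13970, AT3G21020, AT3G53400, AT4G15260 and AT5G59670) stood between 1.33 and 2.72 above wild type on the log2 scale. QQS was also the only gene at least 4-fold higher in upf3-1 than in both other genotypes on every day. At 2-fold the pseudogene AT3G21020 joined it, with upf3-1 minus upf1-1 at 1.49, 1.18 and 1.80. In the opposite direction UPF3 was the only gene at least 2-fold lower in upf3-1 than in both on every day. Among the probe sets not used as a gene, 2 were at least 2-fold higher and 0 at least 4-fold higher in this sense.

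**Figure D2:**
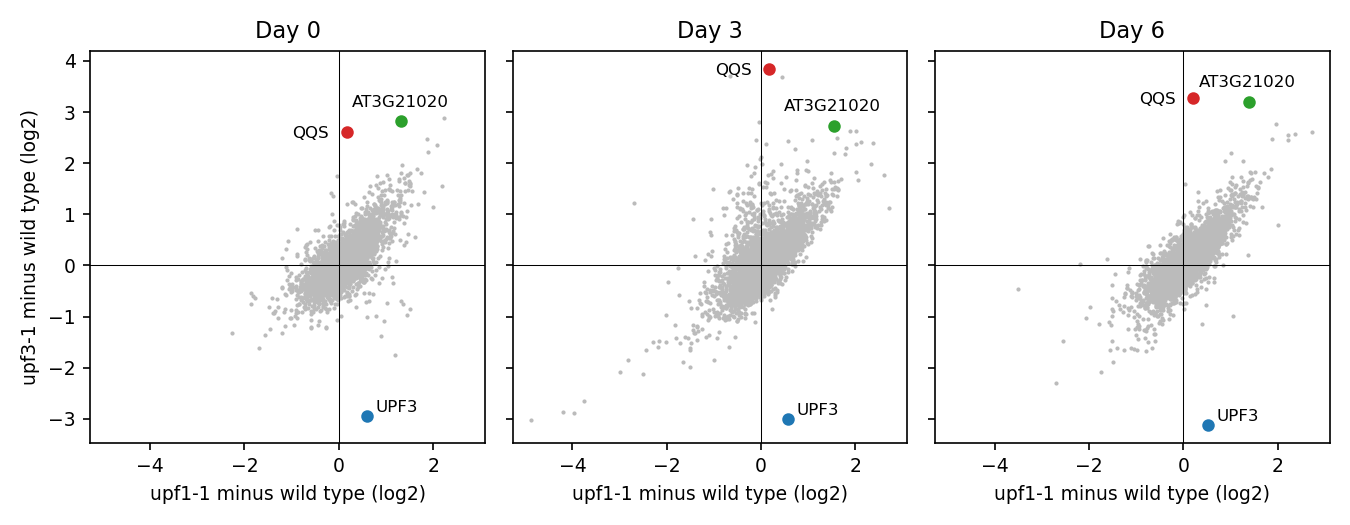
Log2 difference from wild type of each of the 13286 genes in upf1-1 (horizontal axis) and upf3-1 (vertical axis) on days 0, 3 and 6, with QQS, AT3G21020 and UPF3 marked. QQS sits near 0 on the horizontal axis (0.17 to 0.20) and at 2.62 to 3.85 on the vertical axis, while AT3G21020 is high on both.

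QQS was chosen on differences between genotypes and not on change with time, which was tested. The same arrays entered that choice, so the p-values within upf3-1 are not fully free of it. In upf3-1 QQS rose from day 0 to day 3 by 0.88 (SE 0.28, 1.84-fold, limma adjusted p = 0.0195). The arrays of the days overlapped, since replicate 1 of day 0 (7.70) exceeded replicate 2 of day 3 (7.50). In that contrast 31.5% of all genes were called, 1804 higher and 2377 lower, so a call there is common. By size of increase QQS was number 392 of the 13286 genes. On a scale set by the probe sets of poly-A control transcripts (the spike-in scale), 4199 genes were called higher and 385 lower. Whether these transcripts were added to the RNA evenly, or at all, was not checked. Their mean signal fell from day 0 to day 6, from 6.25 to 5.52 in wild type, 5.92 to 5.44 in upf1-1 and 6.00 to 5.38 in upf3-1. This scale therefore raises the later days.

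This rise rested on single arrays. Without upf3-1 day 3 replicate 1 it was 0.49 (adjusted p = 0.193), without day 0 replicate 2 it was 0.69 (adjusted p = 0.109), and without day 0 replicate 3 it was 0.82 (adjusted p = 0.0605). It was also not called when limma was fitted to those 2 groups alone (adjusted p = 0.091). On the poly-A control scale it was 1.22 and was called (adjusted p = 0.000262), with a median difference of all genes of 0.31.

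The later changes in upf3-1 were not called by limma. QQS stood at -0.43 from day 3 to day 6 (SE 0.28, adjusted p = 0.438) and at 0.45 from day 0 to day 6 (adjusted p = 0.227). The latter was 1.07 and was called on the poly-A control scale (limma adjusted p = 0.000368), on which the median difference of all genes was 0.59. In these contrasts 8.23% and 38.9% of genes were called.

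QQS changed in none of the 6 time contrasts of wild type and upf1-1 by limma (0 at an unadjusted p under 0.05). In wild type it stood at -0.36 from day 0 to day 3 (adjusted p = 0.397), 0.14 from day 3 to day 6 (adjusted p = 0.875) and -0.22 from day 0 to day 6 (adjusted p = 0.628). In upf1-1 these values were -0.35 (adjusted p = 0.453), 0.17 (adjusted p = 0.818) and -0.18 (adjusted p = 0.702). On the poly-A control scale the values from day 0 to day 6 turned to 0.52 in wild type (adjusted p = 0.0496), where the median difference of all genes was 0.72, and to 0.30 in upf1-1, where it was 0.47. On that scale wild type was also called from day 3 to day 6 (0.60, adjusted p = 0.0348). In the order of the values above, 28.5%, 5.16% and 33.6% of all genes were called in wild type and 21.5%, 3.12% and 29.1% in upf1-1. Whether the time course differs between genotypes was not tested, because that contrast is made of the differences on which QQS was chosen.

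The genes whose signal followed that of QQS most closely over the 27 arrays stood further above wild type in upf1-1 than QQS did. Likeness was measured as Pearson's r over the 27 log2 values, among the 978 other genes with an SD of at least 0.5 over the arrays. It is a description, since the arrays share groups and fall apart by genotype. The highest were AT2G24290 (r = 0.91), AT1G72840 (0.86), AT4G00960 (0.84), AT3G21020 (0.84) and AT3G20620 (0.83). AT3G21020 is annotated as a pseudogene and the other 4 as protein-coding.

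In each of these 5 genes the mean over days was lowest in wild type, intermediate in upf1-1 and highest in upf3-1. QQS had the same order (4.41, 4.60 and 7.66), but its wild type and upf1-1 arrays overlapped. AT2G24290 had means of 8.05, 8.44 and 9.22 and AT3G21020 had means of 4.67, 6.09 and 7.58 in that order of genotypes. In upf1-1 the 5 genes stood above wild type by 0.32 to 1.54 over the 3 days, where QQS stood at 0.17 to 0.20. AT4G00960 at 2.04 and AT3G21020 at 3.20 were the most raised of them in upf3-1 on day 6.

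The likeness lay in the group means and not in single arrays. Over the 9 group means r was 0.86 to 0.94 for these genes. Over deviations from the group means it was between -0.17 and 0.20, and their ranks fell to between 312 and 745 of 978. By Spearman's rho over the 27 arrays they ranked 7 to 27.

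Most opposed to QQS was UPF3 (r = -0.95), the gene mutated in upf3-1, with means of 9.04, 9.61 and 6.02 in wild type, upf1-1 and upf3-1. AT5G22860 (r = -0.72) and AT2G44300 (r = -0.62) followed. AT5G22860 stood at -0.20, -0.68 and -1.15 in upf3-1 against wild type on days 0, 3 and 6, and AT2G44300 at -0.69, -1.01 and -0.99. In upf1-1 AT2G44300 stood below wild type too (-0.19, -0.73 and -0.54), while AT5G22860 stood above it (0.34, 0.19 and 0.39).

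**Figure D3:**
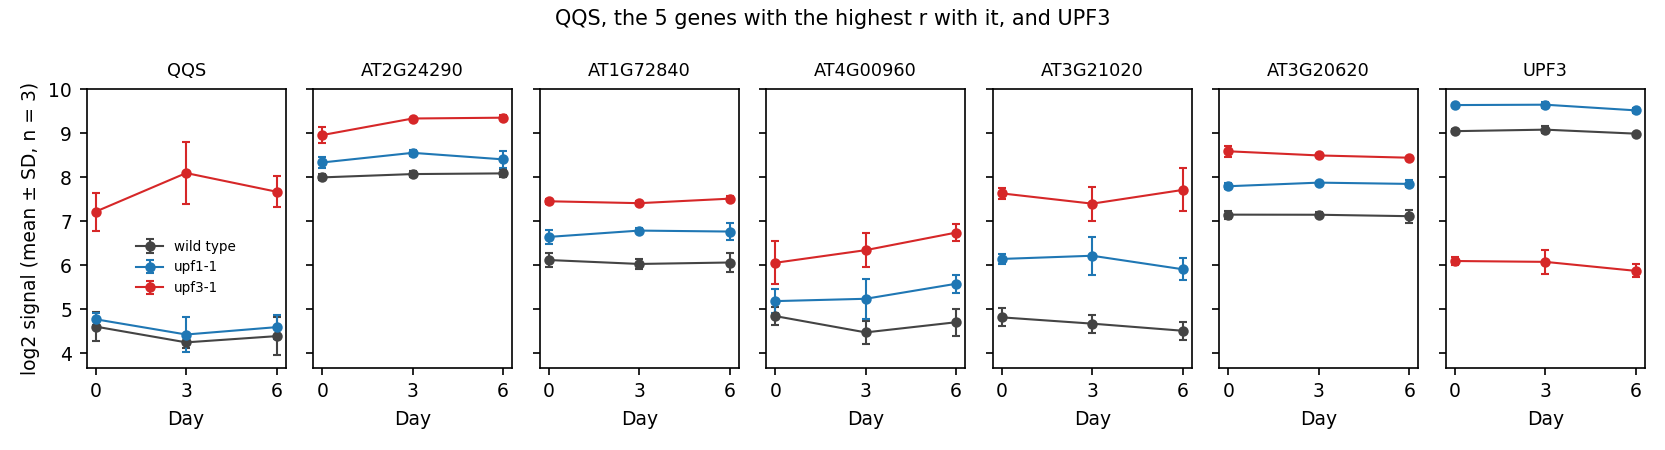
Group mean ± SD (n = 3) of the log2 signal by day (horizontal axis) for QQS, the 5 genes with the highest r with it and UPF3, in wild type, upf1-1 and upf3-1, where heights are not compared between genes. The upf1-1 line lies between the other lines for QQS and the 5 genes, and on top for UPF3. For QQS it runs only 0.17 to 0.20 above the wild type line, with overlapping arrays.

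The genes around QQS did not share its signal. The 3 nearest measured genes before it in chromosome order are AT3G30660, AT3G30670 and AT3G30710, all annotated as pseudogenes. The nearest after it are AT3G30730 (protein-coding), AT3G30740 (a transcribed pseudogene) and AT3G30750 (a pseudogene). They are 4 to 28 genes away in the RefSeq order, and the genes in between were not analysed here. Their log2 signals were low, between 2.21 and 4.80 in all arrays, and the probe sets of AT3G30660 (_x_at) and AT3G30670 (_s_at) may cross-hybridise.

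Over the 6 neighbours and 3 days, upf3-1 differed from wild type by -0.21 to 0.13 and upf1-1 by -0.38 to 0.14. Limma called 0 of these 36 differences, beside 15.3% to 22.5% of all genes called in these contrasts. At such low signals a change below background would not be visible.

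**Figure D4:**
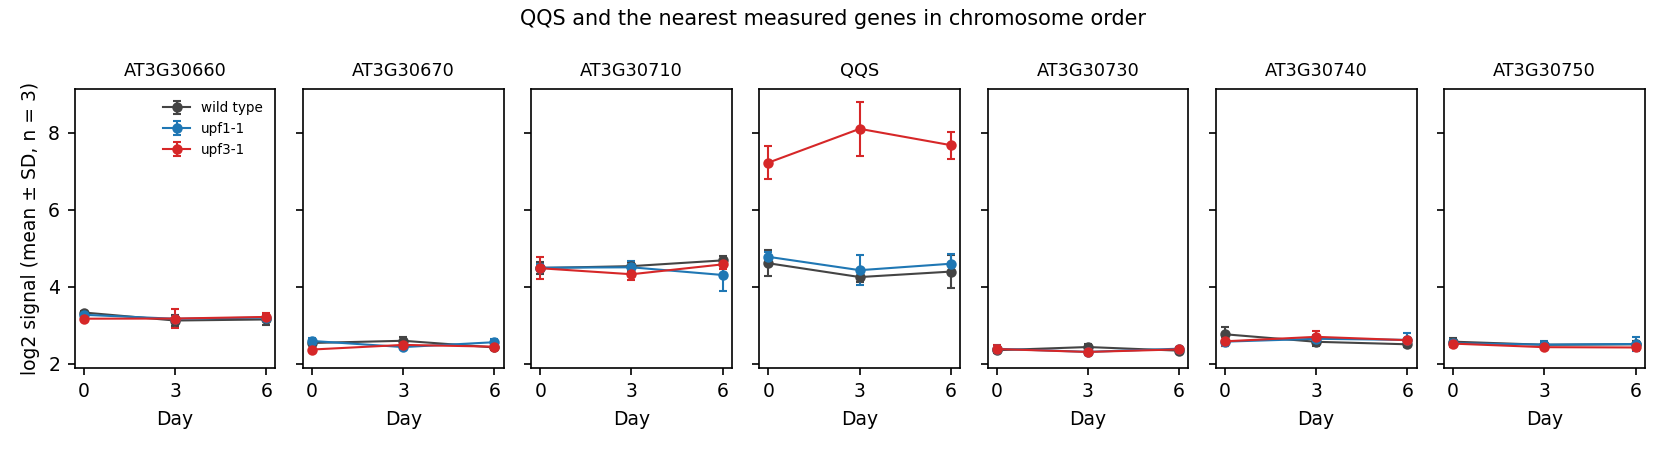
Group mean ± SD (n = 3) of the log2 signal by day (horizontal axis) for QQS and the 3 nearest measured genes on either side, in wild type, upf1-1 and upf3-1. The upf3-1 line lies far above the others for QQS, while the 3 lines run close together for the neighbours, which stay at or below 4.80 in every array.

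Of the pathways tied to QQS only starch metabolism was measured by more than 1 gene. A list gene counts as measured only where the annotation pairs a probe set with its symbol alone. Of 22810 probe sets 8794 had no symbol and 503 had several, so the array may hold further members of each list. The gene lists below were chosen with earlier results of these data known, so calls among their members are not free of that choice. The 20 NF-Y subunits (NF-YC4 among them), 12 nitrogen assimilation genes, 9 SnRK1 and sugar starvation genes and 2 loci silenced by DNA methylation were not analysed here. Of 34 genes of DNA methylation and silencing, 1 was measured, the DNA demethylase gene DME, which stood at 0.19, -0.09 and -0.04 in upf3-1 against wild type on days 0, 3 and 6 and was not called.

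Of 16 starch synthesis genes 3 were measured, and 1, 2 and 2 of them were called higher in upf3-1 than in wild type on days 0, 3 and 6, beside 8.41%, 10.9% and 9.82% of all genes called higher. The medians of the 3 were 0.37, 0.50 and 0.56, beside -0.02, -0.04 and -0.02 for all genes. In upf1-1, where QQS is low, 1, 1 and 2 were called higher (medians 0.33, 0.43 and 0.48), beside 9.27%, 9.86% and 10.5% of all genes called higher and 17.1%, 17.2% and 17.7% called in either direction. Both mutants are set against the same wild type arrays. With 3 genes each median is the value of 1 gene. APL4, the gene of the 3 not described below, had low signals (2.62 to 3.90 over all arrays) and was not called in either mutant. It stood at 0.37, 0.36 and 0.01 in upf3-1 and at 0.06, 0.13 and -0.21 in upf1-1.

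APL3, a large subunit of ADP-glucose pyrophosphorylase, was higher in upf3-1 by 0.44, 0.56 and 0.56 (limma adjusted p = 0.0468, 0.00786 and 0.00861). SBE2.2, a starch branching enzyme gene, stood at 0.37 on day 0 (adjusted p = 0.0637) and was higher by 0.50 and 0.56 on days 3 and 6 (adjusted p = 0.00826 and 0.00385). In upf1-1 APL3 stood at 0.48, 0.43 and 0.55 (adjusted p = 0.0262, 0.0514 and 0.0113) and SBE2.2 at 0.33, 0.58 and 0.48 (adjusted p = 0.0958, 0.00303 and 0.0128). Several of these calls did not hold without single arrays. In upf3-1 the APL3 call of day 0 failed without each wild type array of that day and without upf3-1 replicates 1 and 3 (adjusted p up to 0.14). The APL3 calls of days 3 and 6 were lost without wild type day 3 replicate 2 (0.0801) and wild type day 6 replicate 3 (0.0852), and that of SBE2.2 on day 3 without wild type day 3 replicate 3 (0.0511). In upf1-1 the APL3 call of day 0 failed without each wild type array of that day and without upf1-1 replicates 1 and 2 (adjusted p up to 0.107). The day 6 call of APL3 failed without wild type or upf1-1 replicate 3 (up to 0.105), and that of SBE2.2 without wild type replicate 1 or upf1-1 replicates 1 and 2 (up to 0.0891).

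Of 21 starch breakdown genes 3 were measured, and limma called 0 in upf3-1 on any day (medians 0.07, 0.00 and 0.06), beside 15.3%, 22.5% and 18.4% of all genes called on days 0, 3 and 6. In upf1-1 the alpha-amylase gene AMY1 was higher on day 0 (0.33, adjusted p = 0.0247) and the disproportionating enzyme gene DPE1 on day 6 (0.30, adjusted p = 0.00992). The call of AMY1 failed without wild type replicate 1 or 3 and without upf1-1 replicate 1 or 2 (adjusted p up to 0.155), and that of DPE1 without upf1-1 day 6 replicate 1 (0.0559). On the poly-A control scale the day 6 calls of DPE1 (0.239) and SBE2.2 (0.0543) in upf1-1 were lost, and with arrays scaled to the reference genes so was that of APL3 in upf3-1 on day 0 (0.0575). In fits of the 2 groups alone the day 6 calls of DPE1, SBE2.2 and APL3 in upf1-1 (up to 0.0767) and the day 3 call of APL3 in upf3-1 (0.0569) were lost.

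Markers of green tissue were higher in both mutants, and thus did not follow QQS. Of 10 such genes 5 were measured, and 5, 5 and 4 were called higher in upf1-1 and likewise in upf3-1 on days 0, 3 and 6. Of all genes, 9.27%, 9.86% and 10.5% were called higher in upf1-1 and 8.41%, 10.9% and 9.82% in upf3-1. The marker list was chosen with earlier results of these data known, so its counts are a description. Over all 3 days the 5 genes' mean log2 level ran from 6.21 to 7.45 in the wild type arrays, from 7.51 to 8.11 in upf1-1 and from 7.10 to 8.16 in upf3-1. PRK, the phosphoribulokinase gene of the Calvin cycle, was higher by 1.67, 2.06 and 1.32 in upf1-1 and by 1.20, 1.67 and 1.09 in upf3-1. LHCB4.1, a light-harvesting protein gene, was higher by 1.01, 1.15 and 0.50 in upf1-1 and by 0.52, 0.87 and 0.65 in upf3-1.

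Markers of other cell types moved less evenly. Their lists were also chosen with earlier results of these data known, so their p-values are not free of that choice. Of 2 measured root hair markers EXPA7, an expansin gene, was higher in upf3-1 on day 0 (1.23, limma adjusted p = 1.57e-05) and lower in upf1-1 on day 6 (-0.63, adjusted p = 0.014). Over all 3 days the mean level of these 2 markers ran from 4.101 to 8.02 in wild type, from 4.24 to 7.30 in upf1-1 and from 5.02 to 7.83 in upf3-1. Both rose with time, in wild type from 4.15 on day 0 to 7.69 on day 6 for EXPA7 and from 4.36 to 7.60 for EXPA18. Between genotypes the callus markers did not move together. In upf1-1 on day 0 LBD29 was higher (0.69, limma adjusted p = 0.00188), while PUCHI stood at -0.36 and LBD16 at -0.30. In upf3-1 on day 6 PUCHI was lower (-0.46, adjusted p = 0.0191), while LBD29 stood at 0.31 and LBD16 at 0.18. The 2 measured shoot meristem markers, CLV3 and LAS, were not called in either mutant. CLV3 signals were low (3.11 to 4.01 over all arrays), where a change below background would not be visible. LAS stood at -0.17, -0.33 and -0.18 in upf3-1 and at -0.35, -0.30 and -0.23 in upf1-1. It came close to a call in upf1-1 on day 0 (limma adjusted p = 0.0512) and in upf3-1 on day 3 (0.0543). The part of these cell types in the QQS signal was not tested. The 3′ minus 5′ signal of the actin, GAPDH and ubiquitin probe sets, which reads RNA quality, ran from 1.61 to 1.80 in upf3-1, from 1.60 to 1.88 in upf1-1 and from 1.63 to 1.81 in wild type.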

How the data were processed

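The authors deposited 1 log2 value for each probe set and array, made with RMA per the submitters' processing notes, which name no version. RMA gives every array the same distribution, so a change shared by most transcripts is not visible. A second deposited table held the same values (0 differed). Of 22810 probe sets, 13436 were matched through 1 gene symbol to a RefSeq locus (TAIR10.1, used for names and gene order only). Genes with several probe sets (144) were represented by the brightest one, leaving 13286 genes. Limma 3.58.1 (R 4.3.3) was fitted with 1 mean per group to all 27 arrays, two-sided, with Benjamini-Hochberg adjustment over all genes. On simulated data with independent noise it recovered 53 of 67 genes changed 1.5-fold, 66 of 67 at 2-fold and 66 of 66 at 4-fold. There were 9 false calls. The simulation held no shifts shared by genes or arrays, so it does not check the calls against those. QQS and the 13 gene lists were chosen with earlier results of these data known. Genes named are QQS, UPF3, the 5 highest and 3 lowest by r, 3 measured neighbours on each side, and up to 2 members per list, those called in most contrasts of a mutant with wild type. Outside this rule, the 4-fold genes, LBD16 (the remaining measured callus marker) and APL4 (the remaining measured starch synthesis gene) were named after their values were seen. Of 5 measured reference genes none was called in these contrasts (AT5G15710 differed most, by -0.17 in upf1-1 on day 0). The replicate numbers were checked for pairing: the deviations of same-numbered arrays correlated between -0.286 and 0.272, and in 17 of 18 contrasts not every pair exceeded 0.1, so no block was used. The number of arrays limits the precision.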

Additional observations from a re-analysis of the deposited data

Results flagged for a closer look

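Among the genes named, opposite directions in time appeared in AT3G30670, a pseudogene near QQS whose probe set (_s_at) may cross-hybridise. From day 0 to day 3 its signal differed by -0.16 in upf1-1, with every day 3 array below every day 0 array. In upf3-1 it differed by 0.12, with every day 3 array above every day 0 array. Only the genes named were searched for this, and the share of all genes that separate in this way is not given here. With 3 arrays per group such a separation can arise by chance. The difference between the genotypes was not tested, and the signals were low (2.35 to 2.68 over all arrays).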

How the results depend on the processing

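The differences of QQS between upf3-1 and the other genotypes ranged from 2.21 to 4.15 when single arrays were left out, and from 2.37 to 4.17 under the settings that keep every array (spike-in or reference gene scale, 2 groups only, replicate block, filter on dim genes, the second table, all probe sets). The value for upf1-1 minus wild type on day 0 ran from -0.025 to 0.28, turning sign without wild type day 0 replicate 3, and on days 3 and 6 it ran from 0.03 to 0.40 and from 0.08 to 0.45. The rise of QQS in upf3-1 from day 0 to day 3 ran from 0.49 to 1.18 without single arrays, and was 0.88 with an adjusted p of 0.091 in a fit of the 2 groups. With the replicate number as a block it was 0.88 (adjusted p = 0.0122), and the block changed no call of QQS; the APL3 call in upf3-1 on day 0 was lost (0.0578). From day 3 to day 6 QQS ran from -0.11 to 0.27 in wild type and from -0.054 to 0.32 in upf1-1 without single arrays, turning sign without wild type day 6 replicate 3 and upf1-1 day 3 replicate 3. On the spike-in scale the change from day 0 to day 6 turned to 0.52 in wild type and 0.30 in upf1-1, and called values were 0.60 from day 3 to day 6 in wild type and, in upf3-1, 1.22 from day 0 to day 3 and 1.07 from day 0 to day 6. For the list members, the other named genes and the counts of upf3-1 against upf1-1 these were added after the data were seen. Calls among the starch and silencing genes numbered 11 of 42 pairs of gene and contrast, beside 15.3% to 22.5% of all genes called per contrast, and 8 to 12 without single arrays. Of 2994 values of the other named genes under alternatives, 2875 kept their side of the threshold, and no called one changed sign. The spike-in scale moved the median of all genes by -0.077 to 0.74 over the 18 contrasts and, in those with wild type and over time, the share of calls that was higher from between 42.8% and 60% to between 69.9% and 99.6% (46.6% to 75.3% on the reference gene scale). It changed the number of genes called from 2351 to 995 (upf1-1 day 6) and from 2443 to 1162 (upf3-1 day 6) against wild type, and over time from 685 to 9618 and 4469 to 12052 (wild type, day 6 over days 3 and 0), 2863 to 1394 (upf1-1, day 3 over day 0), 415 to 2067 and 3870 to 9404 (upf1-1, day 6 over days 3 and 0) and 5174 to 10870 (upf3-1, day 6 over day 0). A fit of the 2 groups alone called 1498 (upf1-1 day 6) and 1242 in place of 2035 (upf3-1 day 0) against wild type, and 418, 237 and 616 in place of 685, 415 and 1093 from day 3 to day 6 in wild type, upf1-1 and upf3-1. For upf3-1 against upf1-1 on days 0, 3 and 6 the numbers were 510, 1053 and 298, on the spike-in scale 151, 430 and 49, and in fits of the 2 groups 406, 409 and 97. All probe sets (a larger set) gave 1025, 2274 and 632. The cause of the other changes was not tested.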
